A study of Homo sapiens with 4 samples.

Results

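The peaks described here are those of the Flag-AKT1 E17K list that held almost no reads in the control library. They were chosen by a single rule, 3 or fewer control reads inside the peak, which 309 of the 4838 peaks of that list met (6.39%). The peaks come from RNA immunoprecipitation sequencing (RIP-seq) of MDA-MB-231, a human breast cancer cell line, that was transfected with a plasmid for Flag-tagged AKT1 carrying the E17K mutation. The series also has a second list of 808 peaks, from cells given the wild-type plasmid (Flag-AKT1 WT). Each plasmid has 1 library of RNA pulled down with the anti-Flag antibody and 1 input library, 4 libraries in all. All transfected cells kept their own AKT1 gene besides the plasmid. The lists give a control count without naming the control. Here it is read as the input library of the same plasmid, since the labels describe one, but the series description also mentions IgG. With 1 library per condition no difference has a replicate check, and no p-value is given.

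AKT1 is a serine/threonine kinase of the PI3K pathway, which carries growth factor signals to protein synthesis, metabolism and survival. The E17K mutation lies in the domain that binds membrane lipids and keeps the kinase at the membrane. In RIP-seq, RNA that stays with the tagged protein is set beside the RNA of the lysate before pull-down, so a region with many reads in the immunoprecipitate and few in the input has a high ratio. Where the input count is close to 0, that ratio rests on very few reads.

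The libraries' totals are not in the lists, so depth is known only inside the peaks, and ratios are not scaled for library size. The 4838 peaks held 484463 immunoprecipitate and 248412 control reads, with medians of 39 and 18 per peak. In values over the whole list, control counts of 3 or fewer were counted as 3, which gave a median ratio of immunoprecipitate to control of 2.18. Ratios of single peaks are given on their own counts with an exact (Clopper-Pearson) 95% interval, which covers counting error only. A peak with 0 control reads is given as its reads over a floor of 3 counts, beside the lower end of its exact interval.

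The low-input peaks were also poor in immunoprecipitate reads. They held from 11 to 34 of them, with a median of 13 and quartiles of 12 and 15, and 246 of the 309 had between 11 and 15. Only 18 had 20 or more. Together they held 4305 immunoprecipitate reads, 0.889% of the list, and 691 control reads, 0.278% of the list. Of the 309 peaks, 9 had 0 control reads, 50 had 1, 109 had 2 and 141 had 3. The share of peaks that met the rule fell with the immunoprecipitate reads. It was 37.3% (95% Wilson interval 32.4% to 42.5%) of the 346 peaks with 11 or 12 reads and 24.7% (21% to 28.8%) of the 474 peaks with 13 to 15. Of the 504 peaks with 16 to 20 reads it was 10.1% (7.78% to 13.1%), and of the 861 with 21 to 34 it was 1.39% (0.799% to 2.42%). None of the 2653 peaks with 35 or more reads met it.

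**Figure D1:**
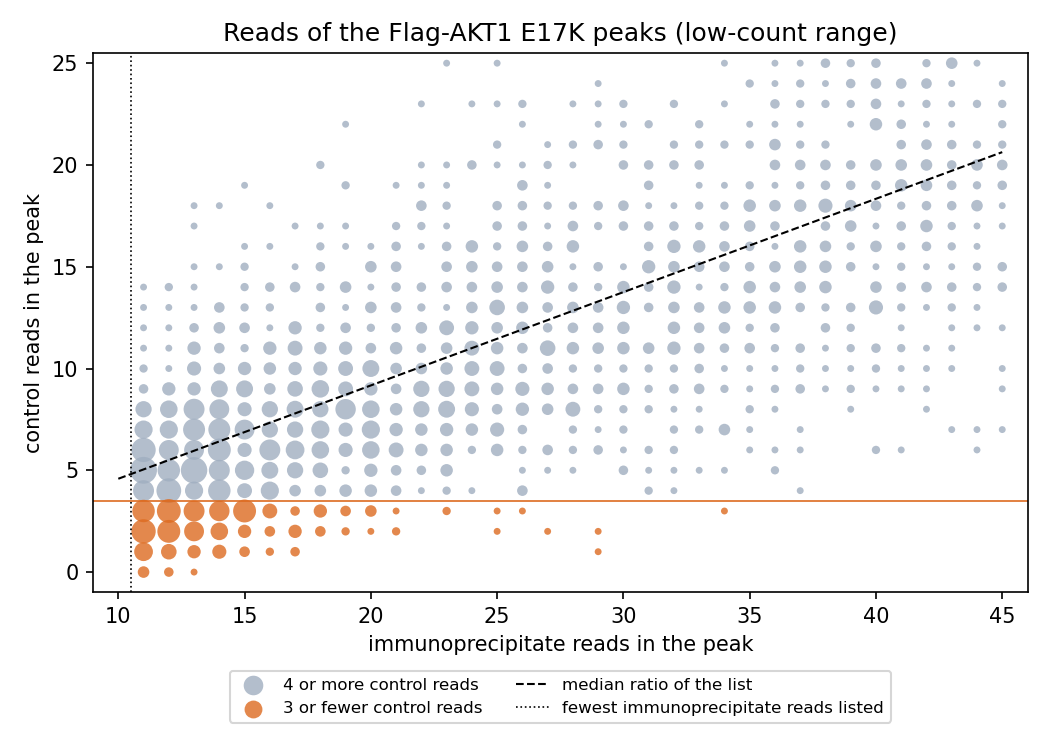
Control reads (vertical axis) against immunoprecipitate reads (horizontal axis) of the Flag-AKT1 E17K peaks with at most 45 and 25 reads, where a larger circle holds more peaks. The 309 low-input peaks (orange) crowd at 11 to 15 immunoprecipitate reads, against the left edge of the list at 11 reads, and the dashed line marks the list's median ratio of 2.18.

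The rule itself fixed a high ratio. In all 309 peaks the immunoprecipitate reads outnumbered the control reads, as did 99.3% of all peaks, and 241 of them reached a ratio of 4 with control counts of 3 or fewer counted as 3, against 8.54% of all peaks. Nothing is read from these counts, since the control reads chose the peaks. The least extreme combination, 11 and 3 reads, has a ratio of 3.67 with an interval from 0.969 to 20.5, which includes the median of the list. The interval of 277 of the 309 peaks included 2.18, and that of 32 peaks lay above it. How many intervals of the whole list lie above it was not counted. Since the control reads chose these peaks, nothing is read from the 32 either. Just inside the rule, the 141 peaks with 3 control reads had a median of 14 immunoprecipitate reads. Just outside it, the 143 peaks with 4 control reads also had a median of 14. The highest counts on the inner side were 34 and 3 reads, at CDK6. On the outer side they were 37 and 4, in the lncRNA NEAT1.

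The number of low-input peaks was set beside the number that counting error gives when every peak has the median ratio of the list. For each peak the reads of both libraries were kept, and the binomial probability of 3 or fewer control reads was summed over the list. This gave 148 peaks, and 309 were found, 2.09 times as many. Peaks with 0, 1, 2 and 3 control reads were given as 1.76, 12.3, 41.6 and 91.9. The numbers found, 9, 50, 109 and 141, were higher at each count, while at 4 control reads 143 were found and 151 given.

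The list has no peak with fewer than 11 immunoprecipitate reads, and this lower edge bears directly on the count. A peak with 14 reads or fewer in both libraries together cannot hold more than 3 control reads without falling below 11 in the immunoprecipitate. This is so for 112 of the 309 peaks (36.2%). With the same sum restricted to at least the fewest immunoprecipitate reads listed on each peak's chromosome strand, an alternative chosen after seeing the data, counting error gave 272 peaks, and 309 were 1.14 times as many. In this form 12, 43.6, 85.3 and 131 peaks were given at 0 to 3 control reads. Peaks with 0 control reads were then fewer than given, 9 against 12. How the peak caller's selection bears on the remaining 37.3 peaks was not tested.

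**Figure D2:**
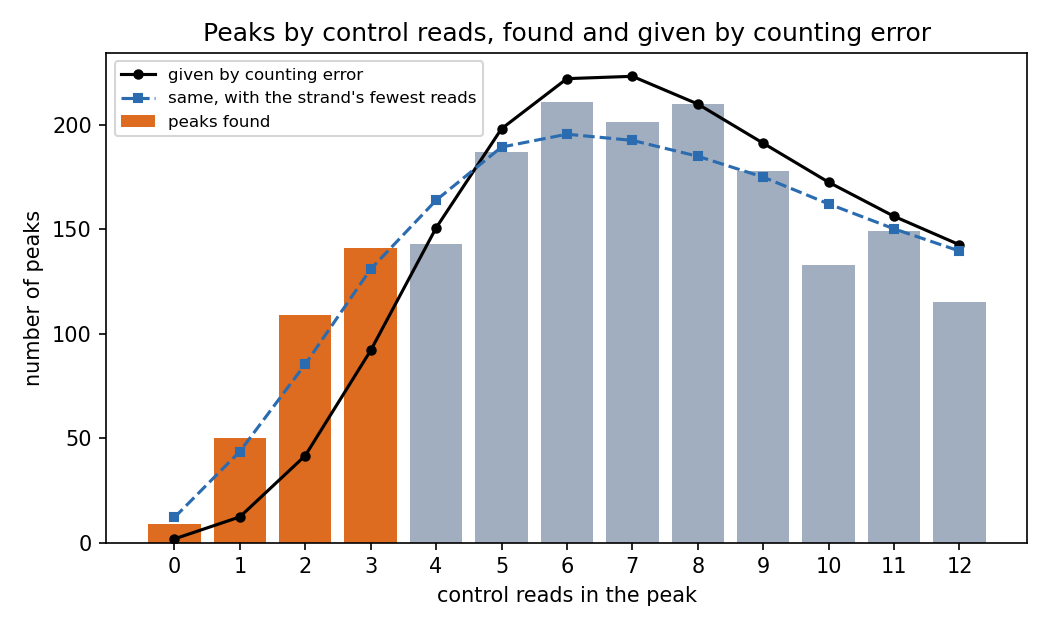
Number of peaks (vertical axis) by control reads in the peak (horizontal axis), with the low-input peaks in orange and the others in grey. The black line gives the numbers from counting error at the median ratio and the blue line the same with the fewest immunoprecipitate reads of each strand held fixed, which at 2 control reads gives 85.3 peaks where 109 were found.

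Low-input peaks lay on 7 of the 27 chromosome strands that have any peak in the list. The plus label of chromosome 7 had the most, 76 of its 658 peaks (11.6%, interval 9.33% to 14.2%). It was followed by the plus label of chromosome 5 with 58 of 768 (7.55%, 5.89% to 9.64%), the plus label of chromosome 11 with 47 of 754 (6.23%, 4.72% to 8.19%) and the minus label of chromosome 10 with 44 of 520 (8.46%, 6.36% to 11.2%). Chromosome 8 had 43 of 553 on the plus label (7.78%, 5.82% to 10.3%) and 40 of 359 on the minus label (11.1%, 8.29% to 14.8%). A single one lay among the 6 peaks of the plus label of chromosome 18. The intervals of the plus label of chromosome 7 and of the minus label of chromosome 8 lay above that of chromosome 11, and all other pairs overlapped.

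The strands with low-input peaks were those on which peaks with few reads are listed at all. On these 7 strands the fewest immunoprecipitate reads of any peak were 11 or 12. On the 20 other strands, with 1220 peaks, the fewest ran from 14 to 7895, and on 19 of them they were 24 or more. Counting error at the median ratio gives 0.0289 low-input peaks over these 20 strands together, so their lack of such peaks is not a measurement of their RNA. With the fewest reads of each strand held fixed, counting error gave 64.9 peaks for the 76 on the plus label of chromosome 7 and 53.0 for the 58 on chromosome 5. It gave 36.5 for the 47 on chromosome 11, 40.3 for the 44 on chromosome 10, and 41.1 and 34.6 for the 43 and 40 on the plus and minus labels of chromosome 8.

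**Figure D3:**
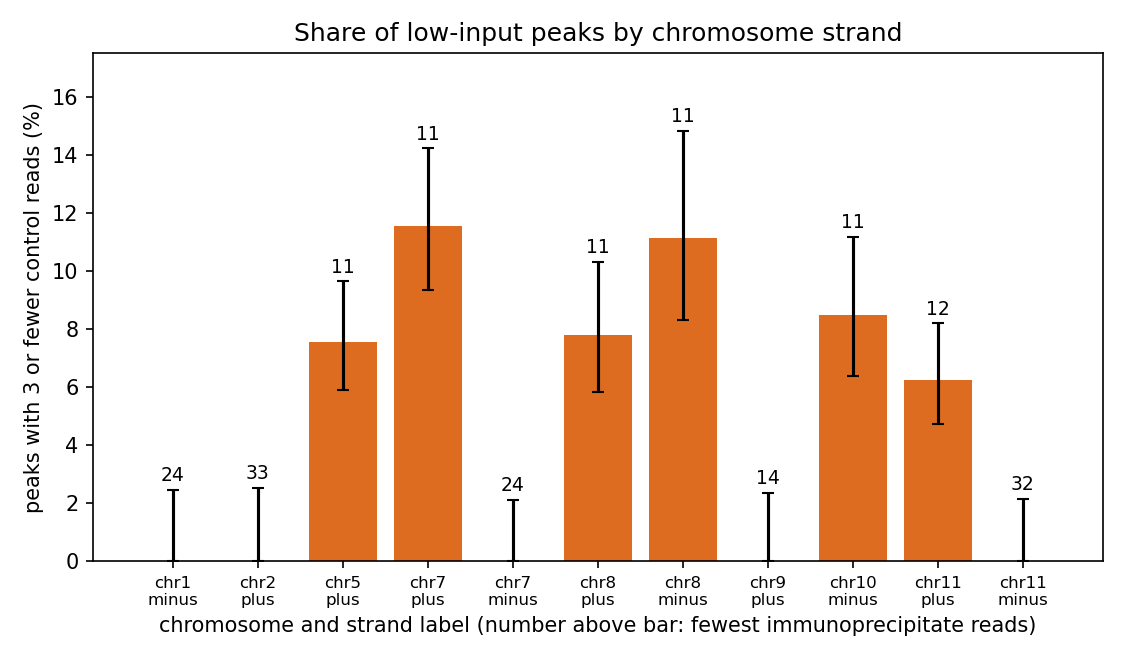
Share of peaks with 3 or fewer control reads (vertical axis, with 95% Wilson intervals) on the chromosome strands with at least 100 peaks, with the fewest immunoprecipitate reads of any peak on that strand printed above each bar. The 6 strands with low-input peaks, from 6.23% to 11.6%, are those whose number is 11 or 12.

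The low-input peaks were narrow. Their median width was 215 bp (quartiles 205 and 235), compared to 400 bp (205 and 615) for all peaks. Peak widths are whole multiples of a bin whose size differs between chromosome strands, from 200 to 235 bp on the 6 strands with most of these peaks. Of the 309 peaks, 250 (80.9%) were 1 bin wide, 40 were 2 bins and 19 were 3 or more, while 43.2% of all peaks were 1 bin wide. This difference went with the number of reads. Other peaks of the same strands, weighted to the same immunoprecipitate reads (1427 peaks), had a median width of 205 bp, and 85.3% of them were 1 bin wide. Peaks of 3 or more bins made up 6.15% of the low-input peaks and 2.13% of these others. Most of these wide low-input peaks lay on the minus label of chromosome 8, which held 12.9% of all low-input peaks. The weighting matched reads and not the share of each strand, so this difference cannot be told apart from one between strands. The widest low-input peak, 3780 bp at the zinc finger gene ZNF521 on chromosome 18, held 12 and 1 reads. The median distance to the nearest other peak on the same strand was 3055 bp for the low-input peaks and 2255 bp for the others at equal reads.

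Gene names come from the spans, introns included, of the RefSeq genes of GRCh38.p14. The submitters' processing notes name the build hg18, but the coordinates fit GRCh38: 305 of the 309 peaks (98.7%) lay in a gene span, compared to 61.2% after all were moved by 1000000 bp. Whether a peak lies in an exon or an intron, and its sequence, were not analysed here. Protein-coding spans held 300 of the 309 peaks (97.1%), against 97.3% of all peaks, and the spans of 240 coding genes were touched. A single span held 277 peaks, several spans 28, and 4 peaks lay in none.

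The strand label of these peaks was the reverse of the strand of the gene. Of the 309 peaks, 189 lay in the span of exactly 1 coding gene whose strand the reference gives, and in all 189 the label was opposite to that strand. The same held for 99.6% of 3181 such peaks of the whole list, and for 44.4% of the low-input peaks after the shift. Chromosome 8, with 83 of the low-input peaks, could not be included because its gene strands were not given. Where spans of 2 genes on opposite strands overlap, the label therefore points to one of them. A peak in both HRAS, a small GTPase upstream of PI3K, and LRRC56 (chromosome 11, 533821 to 534025, plus label, 20 and 3 reads) lay opposite in strand to HRAS only. A peak in both PMPCB and DNAJC2 lay opposite to DNAJC2, a ribosome-associated chaperone.

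Low-input peaks were spread along genes, with more of them towards the 3' end. None of the 226 peaks outside chromosome 8 touched a promoter window (250 bp before to 50 bp after a RefSeq gene start), which allows a share of up to 1.33%, while 32 of 3924 peaks of the list (0.815%) and 4 of 1065 other peaks in the range of equal reads did. With shares this small, 226 peaks cannot show a difference. None overlapped a miRNA hairpin, but the share of all peaks that did was not counted, so nothing is read from this. For 194 peaks with 1 coding gene on the opposite strand, the median place was 0.697 of the way from the gene's 5' to its 3' end. It was 0.765 for all such peaks of the list and 0.705 for the others at equal reads. The last 1 kb of the gene held 7.22% of the low-input peaks, 7.46% of the others at equal reads and 16.2% of all peaks. The host genes had a median length of 58.9 kb, against 62.3 kb at equal reads and 38.4 kb over the list. In place and gene length the low-input peaks were thus close to other peaks with as few reads, and both differed from the list.

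**Figure D4:**
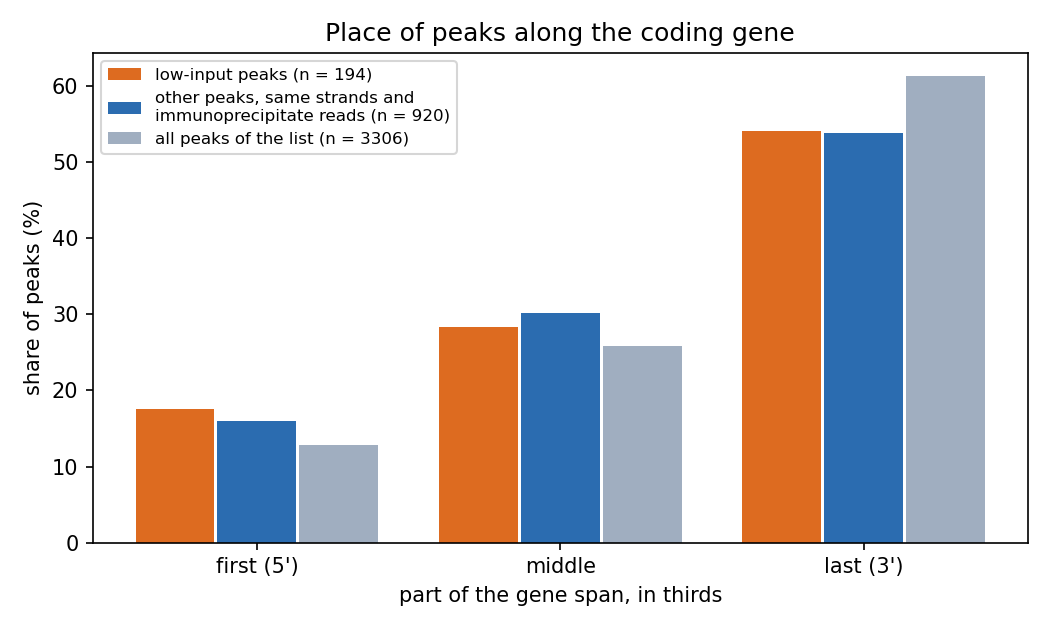
Share of peaks (vertical axis) in 3 equal parts of the coding gene, 5' to 3', for 194 low-input peaks, 920 other peaks of the same strands weighted to the same immunoprecipitate reads, and all 3306 peaks with such a gene. The part nearest the 3' end held 54.1%, 53.9% and 61.3%.

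The low-input peaks with the most immunoprecipitate reads lay in genes of varied function. CDK6, a kinase that drives cells through G1, had 34 and 3 reads (ratio 11.3, interval 3.56 to 57.7) at chromosome 7 from 92606951 to 92607165. The centre of that peak lies 2137 bp from the 3' end of the gene. The 8 other peaks of CDK6 held 617 and 227 reads, a ratio of 2.72. GUSB, the lysosomal beta-glucuronidase that is widely used as a reference gene in RT-qPCR, had 29 and 2 reads (ratio 14.5, 3.67 to 125). SLK, a kinase of the STE20 family that acts on the cytoskeleton, had 29 and 1 reads (ratio 29, 4.81 to 1184), the highest ratio among peaks with a control read, and its 3 other peaks had a ratio of 3.22. CREB3L2, a transcription factor held in the endoplasmic reticulum membrane, had 27 and 2 reads (ratio 13.5, 3.39 to 117), and its 9 peaks outside the rule had a ratio of 2.39.

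Below these came AP3B1, a subunit of the AP-3 adaptor of vesicle sorting, with 26 and 3 reads. PAXIP1, an adaptor of the DNA damage response and of histone methyltransferase complexes, had 25 and 2. The proteasome subunit PSMA2 had 25 and 3 reads, and its 4 other peaks had a ratio of 2.13. ALDH7A1, an enzyme of lysine breakdown, and the zinc finger gene ZNF37A each had 23 and 3. CHD1, a chromatin remodeller, and PRKDC, the catalytic subunit of the DNA-dependent protein kinase, each had 21 and 2, and TGS1, which modifies the caps of small nuclear RNAs, had 21 and 3. Most of these peaks differ from one another by less than their intervals.

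On 1 control read, the highest ratios after SLK were found at PJA2, a ubiquitin ligase, STAMBPL1, a deubiquitinase, and TUT1, which adds uridines to U6 RNA. Each had 17 reads in the immunoprecipitate, a ratio of 17 with an interval from 2.66 to 710. The histone methyltransferase gene KMT2C and WASL, an activator of actin branching, had 16 and 1. The kinase gene SIK3, the translation helicase gene DHX29, FAM91A1 and the nucleoporin gene NUP155 had 15 and 1 each. These intervals are so wide that no order among them can be read.

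In 9 peaks the control had no read. PJA2, the gene named above, had 13 immunoprecipitate reads there, at least 4.33-fold higher than the control on a floor of 3 counts per peak. The exact interval of that ratio starts lower, at 3.05. MACROH2A1, a histone variant, ERAP1, an aminopeptidase that trims antigens, and FDFT1, the squalene synthase, had 12 each, at least 4-fold on the same floor, with intervals from 2.78. GFM2, a factor of mitochondrial ribosomes, RNF216, a ubiquitin ligase, DNAJC2, SLF2 and FAM91A1 had 11 each, at least 3.67-fold, with intervals from 2.51. No peak with more than 13 immunoprecipitate reads was without control reads. PJA2 is the gene that had both a peak at 13 and 0 and one at 17 and 1, and its 7 other peaks had 263 and 121 reads, a ratio of 2.17.

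Spans of 54 genes, 51 of them protein-coding, held 2 or more low-input peaks. The coding ones held 120 of the 309 peaks. These genes had a median of 7 peaks of any kind, compared to 2 for all coding genes with a peak, a difference that the choice of genes with at least 2 peaks partly fixed. The same choice partly fixed that more low-input peaks were found in many of these genes than counting error gave. No excess is therefore read from the numbers given for single genes here and below. PRKDC had the most, with 6 low-input peaks among its 54 peaks (11.1%), where counting error with the fewest reads of the strand held fixed gave 3.92. Their immunoprecipitate and control reads were 11 and 3, 19 and 3, 21 and 2, 12 and 3, 12 and 2, and 17 and 3. The other 48 PRKDC peaks held 1537 and 619 reads, a ratio of 2.48, with single ratios from 1 to 6.43.

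ESYT2, which tethers the endoplasmic reticulum to the plasma membrane, had 4 low-input peaks of 12, with 11 to 15 immunoprecipitate and 2 or 3 control reads. Its 8 other peaks had a ratio of 2.48. PHF20L1, a reader of methylated lysines, had 4 of 8, with 11 to 20 and 1 to 3 reads, and a ratio of 2.23 at the other 4. On the same reckoning, counting error gave 2.89 such peaks for ESYT2 and 1.84 for PHF20L1. GUSB had 3 of 5, where 29 and 2 reads at one peak stood above 11 and 3 and 11 and 2 at the other two. LAMB1, a laminin subunit of the basement membrane, had 18 and 3, 17 and 2, and 14 and 1 reads at its 3 low-input peaks. Its other 5 peaks had a ratio of 3.46, with each of them above the median of the list.

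CHD1 had 3 low-input peaks of 9, and its other 6 had a ratio of 3.02. MAPK9, the stress kinase JNK2, had 11 immunoprecipitate reads at each of its 3 low-input peaks. Its other 4 peaks had a ratio of 1.75, below the median of the list. NUP155 had 3 of 25 with a ratio of 2.16 at the rest, FAM91A1 3 of 17 with 2.52, ADAM9, a membrane metalloprotease, 3 of 16 with 2.23, and AGO2, the slicer of RNA interference, 3 of 14 with 2.34. DHX29 and PAXIP1 had 3 peaks each and all of them were low-input, with 16 and 3, 15 and 3, and 15 and 1 reads at DHX29, and 12 and 2, 14 and 3, and 25 and 2 reads at PAXIP1. The lncRNA CCNO-DT owed its 3 low-input peaks to the same regions as DHX29, and their label was opposite to the strand of DHX29. For the coding genes with 3 low-input peaks, counting error gave from 0.624 (DHX29) and 0.939 (LAMB1) to 3.17 (MAPK9) and 3.40 (AGO2), so that at MAPK9 and AGO2 no more were found than given.

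**Figure D5:**
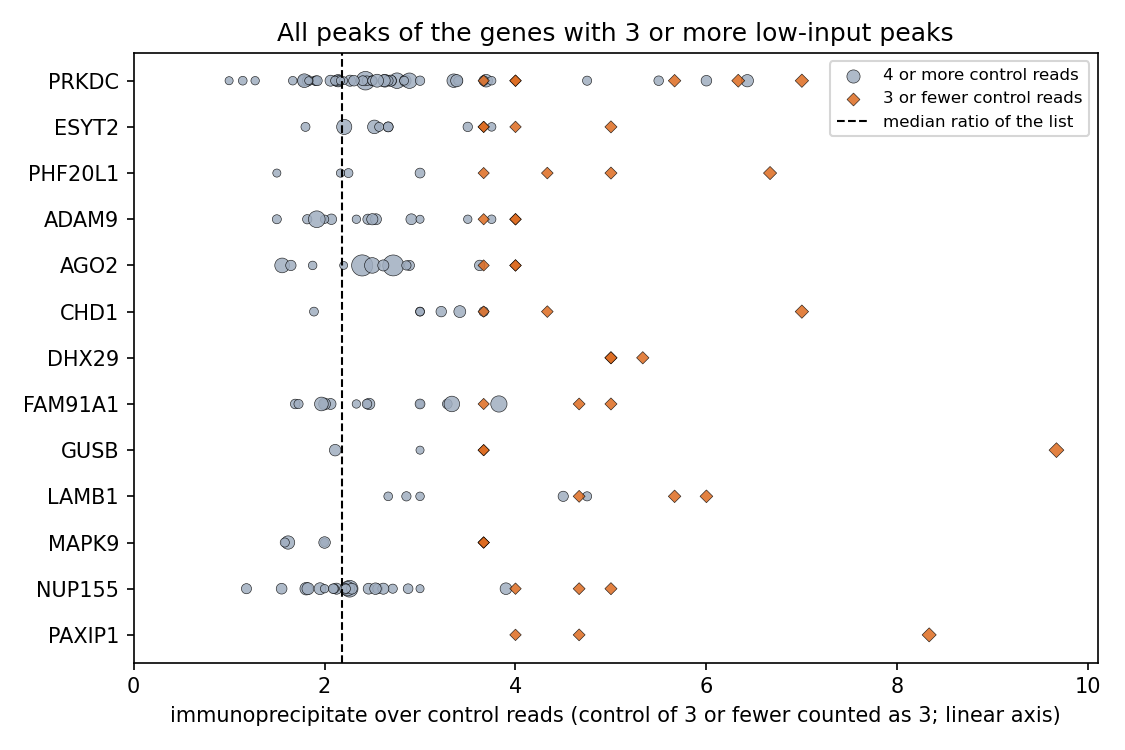
Ratio of immunoprecipitate to control reads (horizontal axis, linear, control counts of 3 or fewer counted as 3) of every peak of the 13 coding genes with 3 or more low-input peaks, where larger symbols have more immunoprecipitate reads. Low-input peaks (orange diamonds) lie to the right by the rule that chose them, while the other peaks (grey circles) of PRKDC, with a summed ratio of 2.48, lie on both sides of the list's median of 2.18 (dashed).

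The other 38 coding genes with more than 1 such peak had 2, the number for which they were chosen. Counting error gave from 0.189 to 2.72 for them, with a median of 1.36. Kinases and signalling genes among them were BRAF, PAK1, PTK2, RIOK2, PDE4D, MTMR2, MTMR12, CREB3L2 and SMURF1. BRAF, a RAF kinase, had 13 and 2 reads at one peak and 12 and 3 at the other, and its 2 other peaks had 26 and 12. PAK1, an effector of RAC and CDC42, had 14 and 1, and 13 and 3, with a ratio of 2.95 at its 3 other peaks. Genes of RNA processing and translation were DROSHA, GEMIN5, RBM28, ZC3HAV1, SKIC3, LARS1, GTPBP4, GFM2, INTS1 and DCAF13. DROSHA, the nuclease that cuts miRNA precursors, had 15 and 3, and 12 and 2, and a ratio of 2.51 at its 7 others. Genes of chromosomes, centrosomes and the spindle were KIF18A, ZW10, POT1, PCM1, SHLD2 and MACROH2A1. Genes of transport, the cytoskeleton and protein turnover were AP3B1, COPG2, TNPO3, WASL, DERL1, PJA2 and RB1CC1. EDIL3, AKR1B1, PON2, PNMA2 and ZPR1 also had 2. ZW10, POT1, WASL and PON2 had no peak outside the rule, like DHX29 and PAXIP1 above. In the remaining 45 of the 51 coding genes, the ratio summed over the other peaks ran from 1.42 at INTS1 to 5 at RB1CC1, with a median of 2.30.

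Outside the chosen peaks, the host genes had slightly higher ratios than other genes. The 940 other peaks of coding genes with a low-input peak had a median ratio of 2.30 (quartiles 1.86 and 2.88) and a median of 26 immunoprecipitate reads. The 2370 peaks of other genes on the same strands had 2.14 on a median of 34 reads. At equal immunoprecipitate reads the medians were 2.31 (quartiles 1.86 and 2.88) in 926 peaks and 2.19 (1.77 and 2.71) in 2021, so the quartiles overlap widely. Both sets come from the same pair of libraries, and no test was made.

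Functional groups were described by lists of gene symbols. Beside each count stand the 6.39% of all peaks that met the rule and the number that counting error gives with the fewest reads of each strand held fixed. Peaks of the PI3K-AKT pathway met the rule in 12 of 146 cases (8.22%, interval 4.76% to 13.8%), with 8.62 given. Of these 12, PRKDC had 6 and CREB3L2 had 2. Others lay in PPP2R1B, a scaffold subunit of the phosphatase PP2A (14 and 3 reads), RHEB, the GTPase that activates mTORC1 (14 and 2), and RICTOR, a subunit of mTORC2 (12 and 3). The other peaks of RHEB had a ratio of 1.74 and those of RICTOR 2.35. Chromatin regulators had 13 low-input peaks of 124 (10.5%, 6.23% to 17.1%), in 11 of 25 genes with a peak, and 12.9 were given. Over the list, 240 of 1708 coding genes with a peak held a low-input peak. Of the peaks of chromatin regulators, 69.4% had 34 or fewer immunoprecipitate reads, compared to 45.2% of the list. Beside CHD1 and KMT2C, the chromatin genes with low-input peaks include BMI1, a Polycomb subunit, with 18 and 3 reads, and RSF1 with 14 and 3.

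Splicing factors and RNA-binding proteins had 19 low-input peaks of 299 (6.35%, 4.11% to 9.71%), with 13.5 given. CNOT4, of the CCR4-NOT deadenylase complex, had 18 and 3 reads, and DHX29 and NXF1, the mRNA export receptor, had 16 and 3. Translation and ribosome genes had 6 of 284 (2.11%, 0.972% to 4.53%), the lowest share of these groups, with 6.49 given. Among them were MRPL15 with 14 and 2, LARS1 with 14 and 3, CARS1 with 13 and 2, and RPS14 with 12 and 2. Of the peaks of this group, 21.8% had 34 or fewer immunoprecipitate reads, compared to 45.2% of the list. In every group the number found differed from the number given by fewer than 6 peaks.

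Cell cycle genes had 4 of 124 (3.23%, 1.26% to 8%, 4.21 given), namely CDK6, CCNH with 16 and 2 reads, KIF11 with 15 and 3, and CCNY with 11 and 3. Mesenchymal and invasion genes had 7 of 139 (5.04%, 2.46% to 10.0%, 5.17 given), of which 3 lay in LAMB1, 2 in PTK2, 1 in SPARC (20 and 3) and 1 in VCL (12 and 1). Ubiquitin and proteasome genes had 13 of 214 (6.07%, 3.58% to 10.1%, 11 given), with DCAF13 at 18 and 3, SMURF1 at 16 and 3 and TRIM21 at 15 and 3 after PSMA2. Small GTPase, cytoskeleton and motor genes had 13 of 270 (4.81%, 2.84% to 8.06%, 13.7 given), with KIF18A at 17 and 3 and RAB6A at 15 and 3 after HRAS. Genes of the mitochondrial list had 11 of 212 (5.19%, 2.92% to 9.05%, 8.94 given), with TIMM23B at 19 and 2, and NDUFC2 and MTERF3 at 15 and 3. This count includes the peak shared by PMPCB and DNAJC2. It also includes a peak of 11 and 2 reads at ATAD2, a chromatin gene that this list of symbols holds. Zinc finger genes had 7 of 76 (9.21%, 4.53% to 17.8%, 4.52 given), with ZNF12 at 17 and 3, ZNF511 at 15 and 3 and ZNF33A at 13 and 3 after ZNF37A. TIMM23B has a near-identical copy, TIMM23, which also held a low-input peak (13 and 2 reads), so reads of these copies may be shared between them.

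The study searched for lncRNAs, and 21 of the 309 peaks overlapped a lncRNA span (6.80%, interval 4.49% to 10.2%), compared to 5.39% (4.79% to 6.07%) of all peaks. Of these 21, 17 also lay in a coding span. Outside chromosome 8 lay 16 of the 21. In 4 of these 16 a lncRNA lay on the strand opposite to the label. At all of those but MIR100HG a coding gene lay on that strand too, so the label does not single out the lncRNA. In 7 of the 16 the lncRNAs of known strand lay on the same strand as the label. In the rest the strand of the lncRNA was not given. The 4 peaks in lncRNA spans alone were at PVT1, a neighbour of MYC, with 14 and 2 reads (ratio 7, 1.61 to 63.5), MIR100HG, a miRNA host gene, with 13 and 3 (4.33, 1.19 to 23.7), EXOC3-AS1 with 12 and 2 (6, 1.34 to 55.2) and LOC105376392 with 11 and 3 (3.67, 0.969 to 20.5). Of these, the label could be set against a gene strand at MIR100HG alone, where it was opposite. Each of the 4 intervals includes the median ratio of the list. From the list of abundant and nuclear lncRNAs, which includes PVT1, MIR100HG and EXOC3-AS1, 3 of 30 peaks met the rule, with 2.26 given.

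No low-input peak overlapped a Flag-AKT1 WT peak, on the same label or on either (0 of 309), and none of the 240 coding genes had a Flag-AKT1 WT peak. That list has 2 peaks on the 7 chromosome strands concerned, and 264 of the 309 peaks lie on strands where it has none, so it does not measure these regions. In the Flag-AKT1 WT list itself 3 of 808 peaks met the same rule (0.371%), at SDAD1, SCARB2 and PAQR3 on chromosome 4, with 12 immunoprecipitate reads each and 0, 1 and 2 control reads. At its own median ratio of 0.976, counting error gave 0.333 peaks there, in the sum without the lower edge of that list. That list also starts at 11 immunoprecipitate reads. With their total reads kept, none of these 3 peaks could hold more than 3 control reads without falling below 11 in the immunoprecipitate. No excess is therefore read from 3 against 0.333.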

How the data were processed

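MDA-MB-231 cells were studied by RIP-seq with 1 immunoprecipitate and 1 input library per plasmid. The authors deposited whole-number read counts per peak for both libraries, without normalization, and these counts were used. They also deposited reads per kilobase, a log odds score and p-values with an empirical false discovery rate for each peak, which were not used. The p-value columns deposited by the authors hold their own comparison of immunoprecipitate and control, and the score and reads per kilobase belong to single libraries. Bowtie2 2.2.8 and hg18 stand in the submitters' processing notes, and the peak caller is not given in the sources used here.

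Peaks, members and gene lists were chosen with earlier results of these data known. An overlap of at least 1 bp with a RefSeq span named a gene. Gene strands came from the RefSeq promoter table of GRCh38.p14. Intervals are 95% Wilson or Clopper-Pearson intervals. The genes named are those with 2 or more low-input peaks, the 10 peaks with the most immunoprecipitate reads and the 10 with the highest ratio (ties included), peaks with 0 control reads, lncRNA peaks outside coding spans the peaks with the most reads at exactly 3 and 4 control reads, and up to 4 peaks per gene list. PPP2R1B, RHEB, RICTOR, VCL, ZNF521, TIMM23 and the Flag-AKT1 WT peaks were named after their values were seen. Some genes that met these rules are not reported here. The sum of binomial probabilities was run against counts simulated from the same binomial, without the lower edge of the list. That checks the arithmetic only, and not whether the peaks follow such a binomial. Python 3.11.15, numpy 2.4.6, pandas 2.3.3, scipy 1.17.1 and matplotlib 3.10.9 were used. Alternatives were other limits on control reads, merged peaks, other ratios and other overlap rules.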

Additional observations from a re-analysis of the deposited data

How the results depend on the processing

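With 2 or fewer control reads as the rule, 168 peaks were left in place of 309, and 21 genes held 2 or more of them in place of 54. With 4 or fewer, 93 genes did. A different limit changes these counts by construction. The number given by counting error, 148 in the report, was 262 with at least the fewest immunoprecipitate reads of the list and 272 with those of each strand, both chosen after seeing the data. The share of low-input peaks in lncRNA spans, 6.80%, was 1.29% for peaks in no protein-coding span and 1.77% for lncRNAs on the strand opposite to the label outside chromosome 8, the latter chosen after seeing the data. Both rules remove peaks by construction. The other 12 of 19 alternative values stayed within 1.5 times of a count, or within the error of a share or width. They include the merging of touching peaks, which could not change a list without touching peaks. Depth limits every ratio here, since 3 or fewer control reads allow a wide range. No paired analysis was possible because each condition had 1 library.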
